A study of Mus musculus with 12 samples.

Results

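The messengers of 8 mouse genes that encode regulators of messenger RNA decay in inflammation were followed: the tristetraprolin (TTP) family genes Zfp36, Zfp36l1 and Zfp36l2, the Regnase genes Zc3h12a and Zc3h12c, the Roquin genes Rc3h1 and Rc3h2, and Elavl1, which encodes HuR. They were chosen by symbol for their known roles, 8 of the 21899 genes in the deposited table, and all 8 passed the filter on low counts. The cells were primary bone marrow-derived macrophages, grown from the marrow of wild-type mice, and RNA sequencing measured gene expression. There were 4 groups of 3 libraries: cells given PgLPS and CS-PA/CNP together, cells given PgLPS, cells given CS-PA/CNP, and untreated control cells. The labels spell out neither abbreviation and give no dose, no time, no age, no mouse strain and no order of the agents. The labels number the libraries as biological replicates without naming an animal or a culture, and the p-values below therefore reflect variation among these 12 libraries, part of which may be technical.

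The stability of a messenger sets how long an inflammatory signal lasts, and many cytokine messengers carry short destabilising elements in the untranslated region after the stop codon, the 3′ UTR. TTP and its relatives ZFP36L1 and ZFP36L2 bind AU-rich elements there and recruit the CCR4-NOT deadenylase, which shortens the poly(A) tail; the p38 kinase pathway, through the kinase MK2, phosphorylates TTP and holds back its activity. HuR binds similar elements and is known to stabilise messengers. Regnase-1, the product of Zc3h12a, is an endonuclease that cuts messengers at stem-loops with a pyrimidine-purine-pyrimidine loop and is degraded after Toll-like receptor signals, whereas the Roquin proteins bind such stem-loops and recruit the deadenylase. Several of these regulators act on their own messengers.

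The elements themselves are shown here because they are the letters that these proteins read, in the regulators' own messengers as well as in inflammatory ones. The TTP family binds the nonamer TTATTTATT (U in RNA), which was searched in the 3′ UTR of the longest protein-coding transcript of each gene in GENCODE M21 (GRCm38), on the transcript strand only. All 3 TTP family genes had 1 copy each. Of the 3′ UTRs of tested genes within 10% of the same length, 5.17% held the nonamer at the length of the one in Zfp36, 8.76% at that in Zfp36l1 and 8.98% at that in Zfp36l2. Elavl1 had 8 copies that overlap in part, at a length where 18.8% of 3′ UTRs held any, and Tnf, the classical TTP target, had 5. Rc3h1 and Rc3h2 had 1 copy each, at lengths where 22.2% and 22.7% of 3′ UTRs held it, and Zc3h12a and Zc3h12c had none. In the sites below, capitals mark the nonamers.
Zfp36 at chr7:28376951-28376980 (minus strand): ttatgacgactTTATTTATTgtattaagat
Zfp36l1 at chr12:80108167-80108196 (minus strand): aaactgttggaTTATTTATTttagaaattc
Zfp36l2 at chr17:84184914-84184943 (minus strand): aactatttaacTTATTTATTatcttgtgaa
Elavl1 at chr8:4285776-4285805 (minus strand): TATTTATTTATTTATTTATTtTTATTTATT
Tnf at chr17:35199674-35199703 (minus strand): TTATTATTTATTTATTATTTATTTATTtgc

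Stem-loops of the Regnase and Roquin kind were searched as a loop of 3 bases, pyrimidine, purine, pyrimidine, closed by at least 6 Watson-Crick pairs, again on the transcript strand of the same 3′ UTRs. Zc3h12a had 3 of them in a 3′ UTR of 856 bases, a length at which 5.22% of 3′ UTRs held at least 1. Zc3h12c had 1 in 4062 bases (22.1% of 3′ UTRs of like length held at least 1), Rc3h1 had 4 in 7181 bases, 2 of which overlap in 1 TA repeat (37.0%) and Rc3h2 had 1 in 5331 bases (22.7%). The 3 TTP family genes and Elavl1 had none. Rc3h1 and Rc3h2, which lie on different chromosomes, share 1 stem-loop letter for letter, with the same TGT loop as 1 of the 2 in Tnf. A match describes letters only and is not a shown binding site. In the sites below, capitals mark the loop.
Zc3h12a, first site at chr4:125119069-125119083 (minus strand): gatacaCATtgtatc
Zc3h12a, second site at chr4:125118887-125118901 (minus strand): aggcacCATgtgcct
Zc3h12a, last site at chr4:125118662-125118678 (minus strand): atttaaaTATtttaaat
Zc3h12c at chr9:52113469-52113483 (minus strand): ctgaacCATgttcag
Rc3h1 at chr1:160971660-160971674 (plus strand): aacttcTGTgaagtt
Rc3h2 at chr2:37373809-37373823 (minus strand): aacttcTGTgaagtt
Tnf at chr17:35199585-35199599 (minus strand): gttttcTGTgaaaac
Nfkbiz at chr16:55812613-55812629 (minus strand): ttgtttcTATgaaacaa

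Each library held between 14992707 and 20082900 counted reads, and 11656 genes passed the filter and were tested. Levels are CPM, with each library's total adjusted by TMM. Errors of means are SDs over 3 libraries, and errors of log2 fold changes are standard errors. Tests are edgeR's quasi-likelihood test over the tested genes with Benjamini-Hochberg (BH) adjustment and a threshold of 0.05. The macrophage markers had reads in every group, 11 of 11, with a summed level of 29810 to 31600 CPM with both agents, 30880 to 33520 with PgLPS, 24100 to 25820 with CS-PA/CNP and 21370 to 23000 in control. The summed T and NK cell, B cell and erythroid markers stayed at or below 5.98 CPM in every library, and the neutrophil markers lay between 54.1 and 91.7 CPM. The 8 stromal markers summed to 2.18 to 4.62 CPM with both agents, 6.0 to 54.1 with PgLPS, 0.718 to 2.10 with CS-PA/CNP and 0.472 to 2.82 in control, with 2 of them at 0 reads throughout the CS-PA/CNP group and 2 throughout control. The 6 dendritic cell markers summed to 4.46 to 5.60 CPM with both agents, 4.16 to 7.17 with PgLPS, 0.809 to 1.52 with CS-PA/CNP and 1.01 to 1.51 in control, so they stood higher in both groups with PgLPS; 1 of them was at 0 reads throughout each of those groups. The part of these markers in the PgLPS responses was not tested. The stromal high point was PgLPS library 1. Without that library the PgLPS response of Zfp36 was a log2 fold change of 1.14 and that of Zc3h12a 2.94, against 1.07 and 2.93 with it. Leaving out 1 library does not test the part of these markers. In these bulk samples, fewer cells of a type and less RNA per cell cannot be told apart.

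With PgLPS against control, 7 of the 8 genes changed. Zc3h12a, Zc3h12c, Zfp36 and Elavl1 rose, and Zfp36l1, Zfp36l2 and Rc3h1 fell, so the TTP family split and both Regnase genes rose. Rc3h2 was not called. Among all tested genes 63.8% were called in this comparison by edgeR at a BH-adjusted p under the threshold, 32.2% higher and 31.6% lower, so a count of 7 in 8 says little of these genes. The libraries of the 2 groups did not overlap in 7 of the 8, as in 66.4% of tested genes. The sizes are what separate the genes: the 8 ran from a log2 fold change of −0.96 for Zfp36l2 to 2.93 for Zc3h12a. Scaling by library totals in place of TMM shifts the median over all tested genes by −0.41 on the log2 scale and brings the share of rises among calls to 21.8%, against 50.5% with TMM. Under it Elavl1 turned to −0.17 and Rc3h2 to −0.38, while the other 6 kept their direction: Zfp36 was then 0.65, Zfp36l1 −1.26, Zfp36l2 −1.37, Zc3h12a 2.51, Zc3h12c 1.69 and Rc3h1 −0.75.

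**Figure D1:**
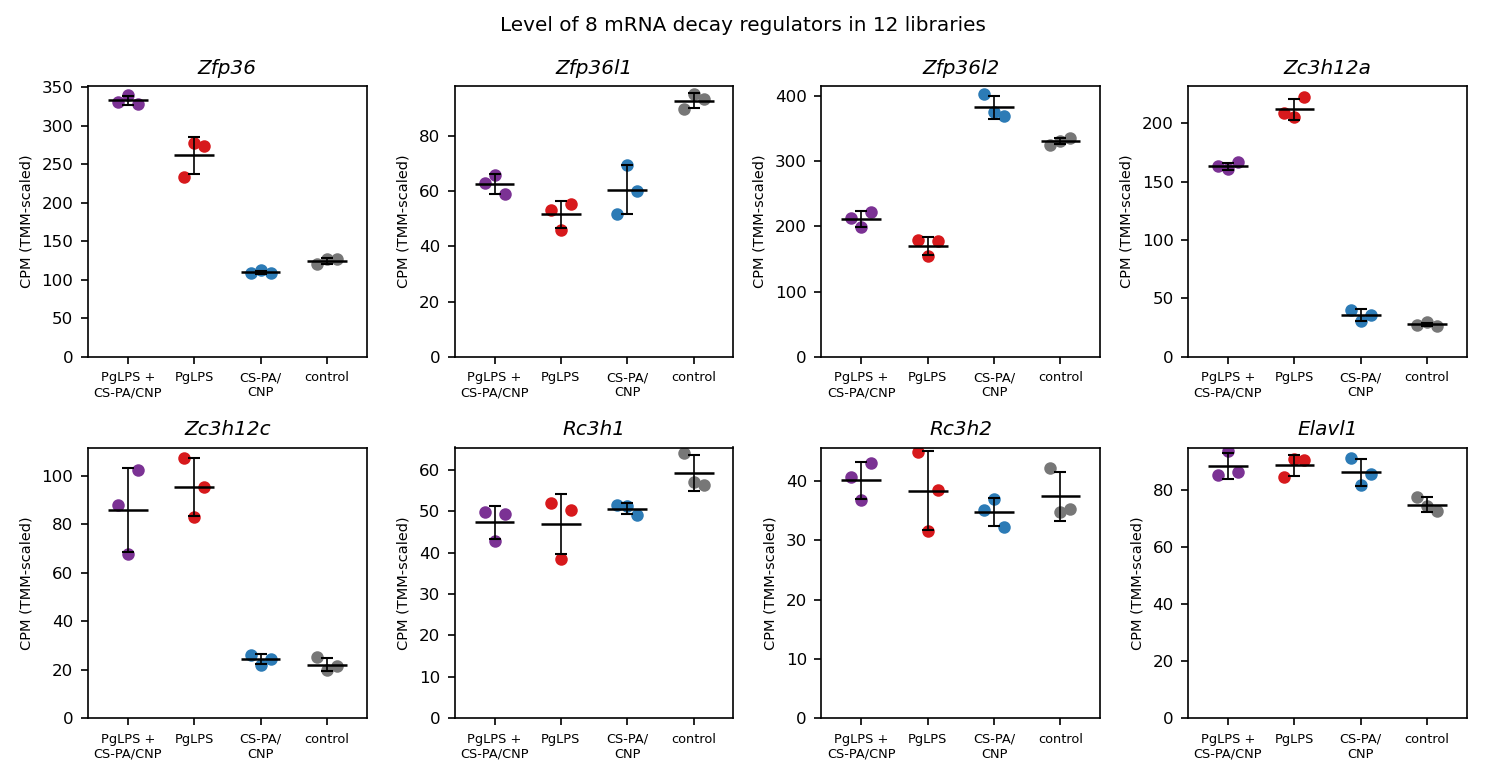
Level of each of the 8 genes in TMM-scaled CPM (vertical axis) in the 12 libraries, by group (horizontal axis); points are libraries, the long bar is the mean and the whiskers are 1 SD (n = 3). Zc3h12a and Zc3h12c stand high in both PgLPS groups, Zfp36l1 is highest in control, and Rc3h2 overlaps across all groups.

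Zfp36 encodes TTP itself. It stood at 331, 340 and 328 CPM in the 3 libraries given both agents, at 234, 277 and 273 CPM with PgLPS, at 109, 112 and 109 CPM with CS-PA/CNP, and at 120, 127 and 127 CPM in control. The 4 groups do not overlap: both PgLPS groups lie above control, and the CS-PA/CNP group lies just under it. The log2 fold change was 1.07 ± 0.065 with PgLPS against control (edgeR BH-adjusted p = 3.26e-11), a rise of 2.10-fold with TMM; with library totals it was 0.65.

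Zfp36l1 encodes a TTP relative with known roles in lymphocyte development and in cell quiescence. It had 63.0, 65.9 and 58.8 CPM with both agents, 53.2, 46.1 and 55.3 CPM with PgLPS, 51.8, 69.5 and 59.8 CPM with CS-PA/CNP, and 89.6, 95.2 and 93.3 CPM in control. Every treated library lies below every control library. With PgLPS it fell by 0.85 ± 0.094 on the log2 scale against control (edgeR BH-adjusted p = 2.35e-07).

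Zfp36l2, another TTP relative, had 213, 199 and 223 CPM with both agents, 179, 154 and 177 CPM with PgLPS, 403, 375 and 369 CPM with CS-PA/CNP, and 325, 331 and 336 CPM in control. Its groups also do not overlap, with CS-PA/CNP highest and PgLPS lowest. With PgLPS it fell by 0.96 ± 0.066 on the log2 scale against control (edgeR BH-adjusted p = 1.97e-10).

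The opposite moves changed which member of the family was most abundant. Zfp36 made up 54.3 ± 1.16% of the summed reads per kb of the 3 genes with both agents, 53.5 ± 3.97% with PgLPS, 19.8 ± 0.394% with CS-PA/CNP and 22.4 ± 0.237% in control (SD, n = 3). Counts were divided by the deposited gene length, and a share within a library needs no scaling between libraries. The deposited length of Zfp36, 3470 bases, is its whole span from start to end. Those of Zfp36l1 (2990) and Zfp36l2 (3530) are shorter than their spans. If the reads of Zfp36 came from a shorter transcript, its share is understated in every group, and the differences in points would change in size. Zfp36l2 held 33.9%, 34.2%, 67.6% and 58.3% of the family in the same 4 groups, and Zfp36l1 held 11.8%, 12.2%, 12.6% and 19.3%. The share of Zfp36 was 31.1 percentage points higher with PgLPS than in control and 31.9 points higher with both agents than in control, with no overlap of libraries, and 2.60 points lower with CS-PA/CNP than in control. Each of these gave p = 0.1 in a 2-sided exact permutation test, the smallest p that 3 against 3 libraries allow. With both agents against PgLPS the share differed by 0.75 points (exact permutation p = 0.8), and it turned to −1.22 points without PgLPS library 1.

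The summed level of the family was 177 ± 0.398 CPM per kb with both agents, 141 ± 5.95 with PgLPS, 160 ± 3.80 with CS-PA/CNP and 161 ± 3.32 in control. The PgLPS group was the lowest and the group given both agents the highest, and neither overlapped another group. That order depends on the scaling: scaled by library totals alone, the sum per kb was 158 ± 1.31 with both agents, 122 ± 5.14 with PgLPS, 179 ± 5.03 with CS-PA/CNP and 185 ± 2.58 in control, so both agents then lay below control. With both agents the sum stood above PgLPS on either scale. The sums also rest on the deposited lengths. A shorter length for Zfp36 would give it more weight, and the order of PgLPS and control under it was not tested.

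**Figure D2:**
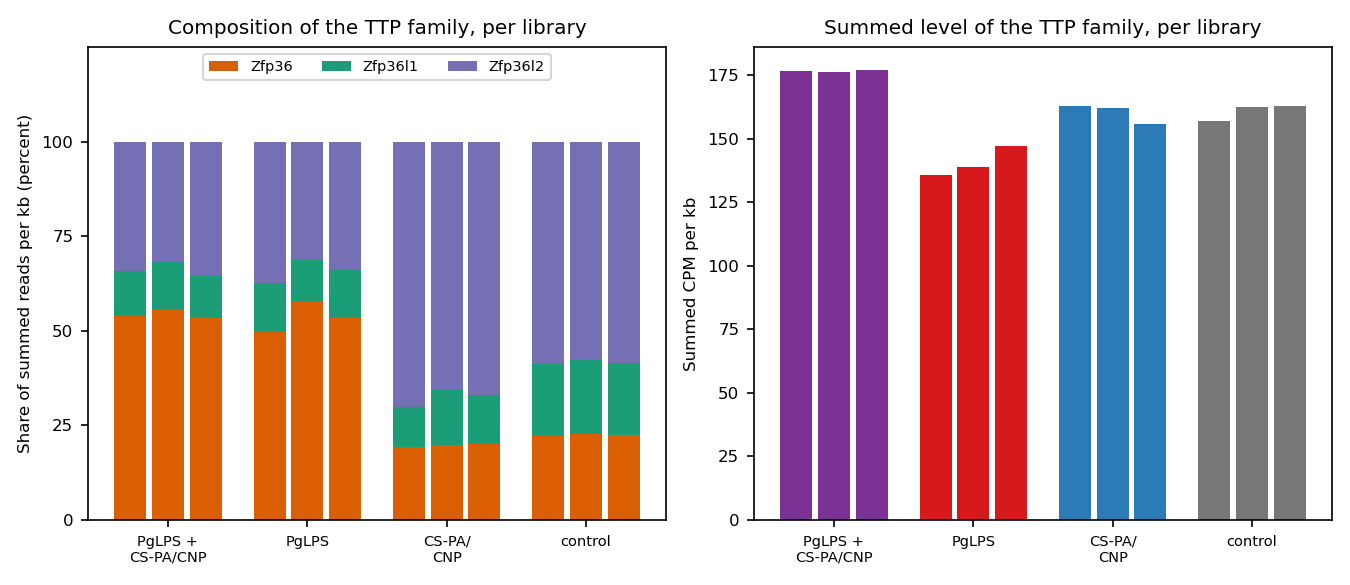
Left, share of Zfp36, Zfp36l1 and Zfp36l2 in their summed reads per kb in each library (percent); right, their summed level in TMM-scaled CPM per kb of gene length, 1 bar per library, grouped by treatment. By the deposited gene lengths, Zfp36 holds 49.6% to 57.5% of the family in both PgLPS groups and 19.3% to 22.6% in the groups without PgLPS.

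Zc3h12a, the gene of Regnase-1, had the largest response of the 8 to PgLPS. It had 163, 161 and 166 CPM with both agents, 208, 205 and 222 CPM with PgLPS, 40.5, 30.5 and 36.1 CPM with CS-PA/CNP, and 27.7, 29.4 and 26.4 CPM in control. No group overlaps another. The rise with PgLPS against control was 7.61-fold, a log2 change of 2.93 ± 0.086 (edgeR BH-adjusted p = 4.98e-16).

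Zc3h12c encodes Regnase-3, a relative of Regnase-1 reported in mouse macrophages. It had 87.7, 67.8 and 102 CPM with both agents, 107, 83.0 and 95.5 CPM with PgLPS, 26.2, 22.1 and 24.5 CPM with CS-PA/CNP, and 25.3, 19.8 and 21.4 CPM in control. The 2 groups with PgLPS overlap each other, as do the 2 without, and nothing lies between. Its log2 fold change with PgLPS against control was 2.10 ± 0.13 (edgeR BH-adjusted p = 7.29e-11).

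Rc3h1, the gene of Roquin-1, had 49.8, 42.8 and 49.3 CPM with both agents, 51.9, 38.5 and 50.3 CPM with PgLPS, 51.5, 51.1 and 49.2 CPM with CS-PA/CNP, and 64.1, 57.0 and 56.3 CPM in control. All treated libraries lie below the lowest control library. With PgLPS Rc3h1 fell by 0.34 ± 0.099 on the log2 scale against control (edgeR BH-adjusted p = 0.00638). The log2 change was −0.75 with library totals and −0.21 without PgLPS library 2, and stayed called in both (edgeR BH-adjusted p = 3.89e-06 and 0.0421).

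Rc3h2, the gene of Roquin-2, had 40.7, 36.8 and 43.0 CPM with both agents, 44.9, 31.6 and 38.6 CPM with PgLPS, 35.1, 37.0 and 32.3 CPM with CS-PA/CNP, and 42.2, 34.8 and 35.4 CPM in control. Every group overlaps control. The log2 fold change with PgLPS against control was 0.03, with a 95% interval of −0.21 to 0.27 (edgeR BH-adjusted p = 0.822), and Rc3h2 was not called in any of the 5 comparisons by edgeR with TMM. With library totals it was −0.38 with PgLPS against control (edgeR BH-adjusted p = 0.00721).

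Elavl1, the gene of HuR, had 85.3, 93.7 and 86.1 CPM with both agents, 84.3, 90.8 and 90.5 CPM with PgLPS, 91.2, 81.7 and 85.4 CPM with CS-PA/CNP, and 77.6, 74.4 and 72.5 CPM in control. The 3 treated groups overlap one another and lie above control. With TMM the log2 fold change with PgLPS against control was 0.24 ± 0.067 (edgeR BH-adjusted p = 0.004), and with library totals it was −0.17 (adjusted p = 0.0266), so its direction rests on the scaling. Elavl1 overlaps Ccl25 on the opposite strand in the deposited coordinates. Whether the libraries keep the strand is not stated, and reads of the overlap cannot be assigned; Ccl25 had 76 to 131 reads per library.

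Levels were compared between genes per kb of the deposited gene length. With both agents the order was Zfp36 (95.9 CPM per kb), Zfp36l2 (59.9), Zc3h12a (56.7), Zfp36l1 (20.9), Zc3h12c (12.6), Elavl1 (8.53), Rc3h1 (4.14) and Rc3h2 (2.05). With PgLPS it was Zfp36 (75.3 CPM per kb), Zc3h12a (73.5), Zfp36l2 (48.1), Zfp36l1 (17.2), Zc3h12c (13.9), Elavl1 (8.55), Rc3h1 (4.11) and Rc3h2 (1.96). In control it was Zfp36l2 (93.7 CPM per kb), Zfp36 (36.0), Zfp36l1 (31.0), Zc3h12a (9.66), Elavl1 (7.22), Rc3h1 (5.18), Zc3h12c (3.24) and Rc3h2 (1.91). Per kb of these lengths Zc3h12a stood beside Zfp36 at the top with PgLPS, where the libraries of the 2 genes overlap. In control it stood far below the whole TTP family. Zfp36l2 and Zc3h12a overlap with both agents. The gene lengths are those of the deposited table, and a transcript in use may be shorter. That of Zfp36, 3470 bases, is its whole span from start to end, whereas that of Zc3h12a, 2882 bases, is far shorter than its span. With a shorter transcript Zfp36 would stand higher per kb against Zc3h12a and the other genes.

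When CS-PA/CNP was combined with PgLPS and set against PgLPS, all 3 TTP family genes rose and Zc3h12a fell, so 4 of the 8 were called, against a background of 19.5% of tested genes (9.42% higher and 10.0% lower). With library totals 61.4% of all called genes were higher, against 48.4% with TMM. Zfp36 reached 333 ± 6.4 CPM with both agents, against 261 ± 24 CPM with PgLPS, a log2 difference of 0.35 ± 0.063 (edgeR BH-adjusted p = 0.000506). Zfp36l2 reached 211 CPM, against 170 CPM with PgLPS, a log2 difference of 0.32 ± 0.066 (edgeR BH-adjusted p = 0.00168). Zfp36 thus moved further in the direction PgLPS had taken it, and Zfp36l2 moved back towards control.

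Zfp36l1 had a log2 fold change of 0.28 ± 0.096 with both agents against PgLPS (edgeR BH-adjusted p = 0.0466), close to the threshold. It was no longer called in 8 of 18 alternatives, with adjusted p from 0.0138 to 0.158 over all of them; these left out PgLPS library 1 or 2, the library 1 or 2 given both agents, control library 2 or 3 or CS-PA/CNP library 3, or fitted the 2 groups alone. Zc3h12a fell to 163 CPM with both agents, against 212 CPM with PgLPS, a log2 change of −0.38 ± 0.078 (edgeR BH-adjusted p = 0.00158), and still stood 5.86-fold above control. Zc3h12c, the other Regnase gene, was not called, with a log2 fold change of −0.15 and a 95% interval of −0.41 to 0.11 (adjusted p = 0.464). For Rc3h1, Rc3h2 and Elavl1 the intervals were −0.20 to 0.22, −0.17 to 0.30 and −0.14 to 0.14, and none was called.

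CS-PA/CNP without PgLPS, against control, changed 3 of the 8 genes, 2 up and 1 down, against 12.3% of tested genes (6.67% higher and 5.61% lower). Zfp36l1 fell by 0.62 ± 0.092 on the log2 scale (edgeR BH-adjusted p = 0.000114), against a fall of 0.85 with PgLPS. Zc3h12a rose by a log2 change of 0.36 ± 0.087 (edgeR BH-adjusted p = 0.00928), and was not called without control library 3 (adjusted p = 0.0616) or CS-PA/CNP library 1 (0.0882). Zfp36l2 rose by 0.21 ± 0.064 (edgeR BH-adjusted p = 0.0385), a call lost in 9 of 18 alternatives, where adjusted p ran from 0.00553 to 0.212: with library totals, without any 1 of the 3 control or 3 CS-PA/CNP libraries, without PgLPS library 3, and without library 1 of the group given both agents.

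Of the 5 genes not called with CS-PA/CNP alone, Zfp36 had a log2 change of −0.18 (edgeR BH-adjusted p = 0.0785) and Elavl1 of 0.20 (adjusted p = 0.0562). Neither overlapped control, and each was called in 5 of 18 alternatives. Rc3h1 did not overlap control either, with a log2 fold change of −0.23 and a 95% interval of −0.43 to −0.02 before adjustment (edgeR BH-adjusted p = 0.162). In all, 6 of the 8 did not overlap control, a pattern that 31.4% of tested genes showed. Zc3h12c and Rc3h2 had intervals of −0.16 to 0.43 and −0.34 to 0.12. With library totals 41.9% of called genes in this comparison were higher, against 54.3% with TMM.

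**Figure D3:**
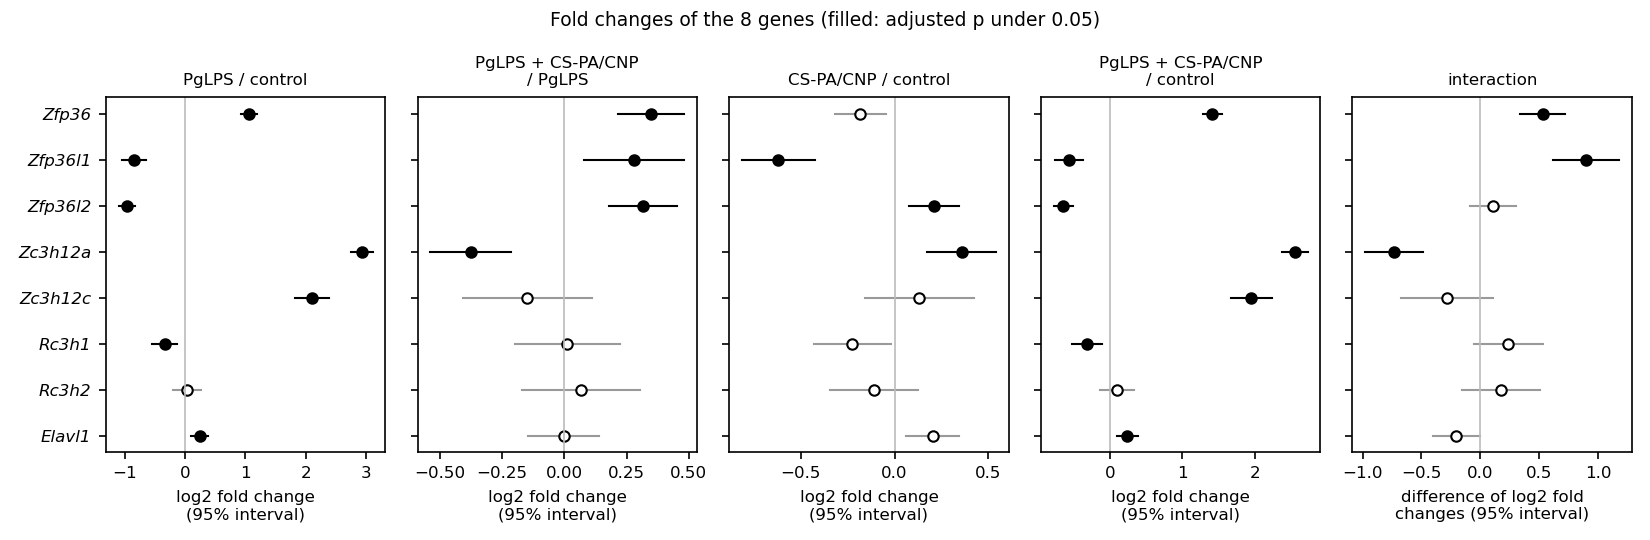
Log2 fold change (horizontal axis) of the 8 genes with its 95% interval in 4 comparisons and, on the right, the interaction, the log2 fold change of both agents over PgLPS less that of CS-PA/CNP over control; filled points have an adjusted p under 0.05, and axes differ between panels. Zfp36l1 fell with CS-PA/CNP alone (−0.62) and rose when CS-PA/CNP was combined with PgLPS (0.28), and Zc3h12a did the opposite (0.36 and −0.38).

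The effect of CS-PA/CNP was therefore compared between cells with and without PgLPS, as a difference of log2 fold changes in the same fit. It differed for 3 of the 8 genes, 2 with a positive and 1 with a negative difference, against 15.8% of tested genes (7.46% positive and 8.34% negative). For Zfp36l1 the difference was 0.90 ± 0.13 (edgeR BH-adjusted p = 7.33e-05), for Zc3h12a −0.73 ± 0.12 (adjusted p = 0.000155) and for Zfp36 0.53 ± 0.090 (adjusted p = 0.000332). All 3 were called in every one of the 17 alternatives run. The share of positive differences among called genes was 47.2% with TMM and 63.7% with library totals. For Zfp36l2 the difference was 0.11, with an interval of −0.09 to 0.30 (edgeR BH-adjusted p = 0.526). Zfp36l2 was called higher with CS-PA/CNP in both settings, but the call without PgLPS was lost in 9 of 18 alternatives.

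With both agents against control, the directions were those of PgLPS alone, which shares these control libraries. There were 4 rises and 3 falls among the 8 genes, and 58.0% of tested genes were called (29.7% higher and 28.4% lower), with a share of rises of 51.1% with TMM and 21.3% with library totals. In 7 of the 8 the libraries did not overlap control, as in 63.1% of tested genes. Zfp36 was 1.42 higher on the log2 scale with both agents than in control (edgeR BH-adjusted p = 6.15e-13), and Zc3h12a 2.55 higher (adjusted p = 5.2e-15). Zfp36l1 fell by 0.57, Zfp36l2 by 0.64 and Rc3h1 by 0.32. With library totals these values were 1.05 for Zfp36, 2.19 for Zc3h12a, −0.93 for Zfp36l1, −1.01 for Zfp36l2 and −0.69 for Rc3h1. Elavl1 was 0.24 higher with TMM and −0.12 with library totals.

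The genes whose course over the 12 libraries was most like that of each regulator were found by the root-mean-square difference of log2 CPM centred on control, a description with no test. Xylt2, a xylosyltransferase, lay nearest to Zfp36, at 0.077 log2 units. Mrc1, the mannose receptor, lay nearest to Zfp36l1 at 0.13, and Inf2, a formin, nearest to Zfp36l2 at 0.093. Itgal, an integrin chain, lay nearest to Zc3h12a at 0.13, followed by N4bp1 at 0.16 and Gch1 at 0.16. Adar, an RNA-editing enzyme, lay nearest to Zc3h12c at 0.13. Map3k1, Phip and Srrt lay nearest to Rc3h1, Rc3h2 and Elavl1, at 0.056, 0.071 and 0.058, where small distances mostly reflect courses that vary little.

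Around the 8 genes, other RNA-binding proteins that read or protect the same elements moved with PgLPS in 12 of 16 tested cases, 9 up and 3 down, with a median log2 fold change of 0.21 against −0.0037 over all tested genes, of which 63.8% were called. Arid5a, whose product protects Il6 messengers against Regnase-1, had 39.4 CPM with PgLPS, against 2.29 CPM in control, a log2 change of 4.10 ± 0.15 (edgeR BH-adjusted p = 1.7e-14). N4bp1, which encodes a nuclease related to the Regnases, had 463 CPM with PgLPS, against 54.5 CPM in control. Both fell with both agents against PgLPS, Arid5a to 25.0 CPM and N4bp1 to 336 CPM, as Zc3h12a did. Igf2bp2, the gene of a protein known to stabilise bound messengers, rose in both comparisons, to 295 CPM with both agents, against 221 CPM with PgLPS and 97.1 CPM in control. With both agents against PgLPS these 3 of the 16 were called, against 19.5% of tested genes. Both counts are near the shares over all tested genes.

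The general decay machinery moved in both directions: of 37 tested genes 9 rose and 12 fell with PgLPS, with a median of 0.028. As 63.8% of all tested genes were called, this count says little of the machinery. Dcp2, the decapping enzyme, rose to 134 CPM with PgLPS, against 51.2 CPM in control, and Btg1, an adaptor of the deadenylase, to 270 CPM, against 152 CPM in control. Exosc5, a subunit of the exosome, fell to 17.9 CPM, against 32.0 CPM in control. With both agents against PgLPS 1 rose and 3 fell, against 19.5% of all tested genes called. Exosc5 rose to 24.7 CPM, and Btg1, Btg2 and Cnot6 fell, Btg1 to 167 CPM.

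In the p38 pathway that acts on TTP, 10 of 14 tested genes rose and 2 fell with PgLPS, with a median of 0.60, against 32.2% of all tested genes higher and 31.6% lower. With both agents against PgLPS 7 of 14 fell and 7 were not called, with a median of −0.23, against 10.0% of all tested genes lower. The list counts kinase genes together with Ywhab, Ywhaz and genes of phosphatases, among them Dusp1, Dusp2, Dusp10, Ppp2ca and Ppp2cb. These counts therefore give no direction for the pathway. Mapkapk2, the gene of MK2, had 452 CPM with both agents, 556 CPM with PgLPS and 192 CPM in control, and its log2 fold change between the first 2 was −0.30 ± 0.063 (edgeR BH-adjusted p = 0.00184). Mapk14, the gene of p38 alpha, had 228 CPM with both agents, 267 CPM with PgLPS and 140 CPM in control. Dusp1, a phosphatase that switches p38 off, had 78.2 CPM with both agents, 123.5 CPM with PgLPS and 59.1 CPM in control. So Mapkapk2, Mapk14 and Dusp1 fell with both agents against PgLPS where Zfp36 rose. Messenger levels say nothing of kinase activity, which was not measured.

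Messengers reported as bound or destabilised by the TTP family were mostly higher with PgLPS: of 22 tested 20 rose and 2 fell, with a median log2 fold change of 3.88. Il6 and Nos2 passed the filter on low counts through the groups with PgLPS alone, so they had to differ; of the other 20, 18 rose and 2 fell, with a median of 3.29, against 32.2% of all tested genes higher. Of the same 22, 14 fell and 3 rose with both agents against PgLPS, with a median of −0.51 (−0.35 over the 20), against 10.0% of all tested genes lower. The list holds Zfp36 itself, which is 1 of the 3 that rose. This list and the other lists were chosen with earlier results of these data known. Their counts describe the listed genes and do not test the targets of a regulator as a class. Il1b, the interleukin-1 beta gene, had 499 CPM with both agents and 3064 CPM with PgLPS, a log2 change of −2.62 ± 0.12 (edgeR BH-adjusted p = 5.01e-11). Il6 had 5.56 CPM with both agents and 46.0 CPM with PgLPS. The searched 3′ UTRs of Il1b and Il6 held no nonamer. Cxcl2, a neutrophil chemokine with 4 nonamers in its 3′ UTR, had 392 CPM with both agents, 516 CPM with PgLPS and 11.75 CPM in control. Tnf, with 5 nonamers, was not called between the groups with PgLPS, at 203 ± 13.7 CPM with both agents and 236 ± 29.2 CPM with PgLPS (edgeR BH-adjusted p = 0.0582). Plk2, a kinase gene on the same list, went the other way, with 153 CPM with both agents, 95.2 CPM with PgLPS, 168 CPM with CS-PA/CNP and 281 CPM in control. The genes of this list are thus not of one course.

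Messengers reported as cut by Regnase-1 rose in 12 of 15 tested cases and fell in 2 with PgLPS, with a median of 5.09. With both agents against PgLPS they fell in 9 and rose in 1, with a median of −0.38. Of all tested genes, 32.2% were higher and 31.6% lower with PgLPS, and 9.42% higher and 10.0% lower with both agents against PgLPS. Il6 and Il12b passed the filter through the groups with PgLPS alone; of the other 13, 10 rose and 2 fell with PgLPS (median 3.44), and 7 fell and 1 rose with both agents against PgLPS (median −0.30). This list holds Zc3h12a and shares Il1b, Il6, Tnf, Ptgs2, Cxcl1, Cxcl2 and others with the TTP list. Tfrc, the transferrin receptor gene, was the 1 that rose, to 52.4 CPM with both agents, against 27.0 CPM with PgLPS. Lcn2, the gene of an iron-siderophore binding protein, fell to 119 CPM with both agents, against 470 CPM with PgLPS. Nfkbiz, whose 3′ UTR holds 2 stem-loops, 1 of them printed above, had 171 CPM with both agents, 234 CPM with PgLPS and 21.5 CPM in control. By the same search Tnf had 2 stem-loops, and Il1b, Il6, Ptgs2, Cxcl1 and Cxcl2 had none. Of 6 tested messengers reported as bound by Roquin, 4 rose and 1 fell with PgLPS. With both agents against PgLPS 3 fell, Ier3, Nfkbiz and Rel. Among all tested genes 63.8% and 19.5% were called in these comparisons, and counts over 6 genes say little.

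**Figure D4:**
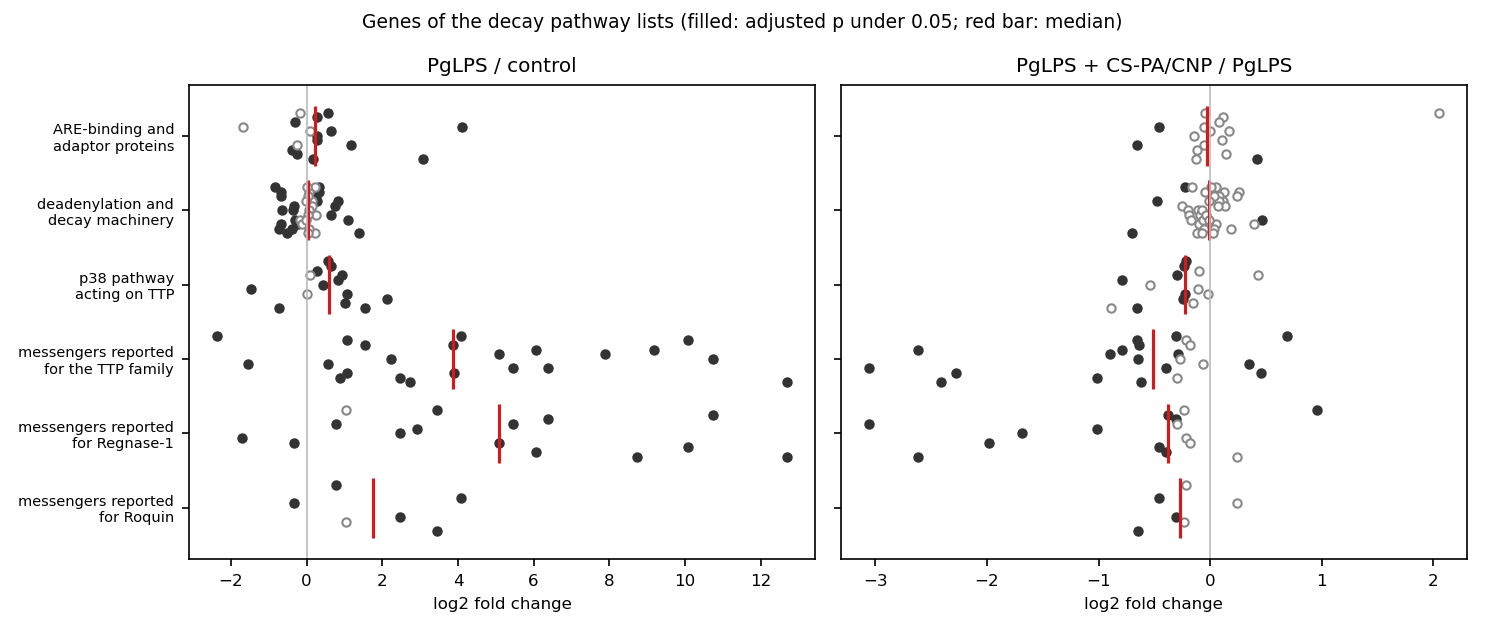
Log2 fold change (horizontal axis) of each tested gene in 6 lists of decay factors and of messengers reported as their targets, for PgLPS against control (left) and both agents against PgLPS (right); filled points have an adjusted p under 0.05 and red bars are list medians. The lists of reported targets have medians of 1.76 to 5.09 on the left and −0.51 to −0.27 on the right, and the axes differ between panels. Il6, Nos2 and Il12b passed the filter through the groups with PgLPS alone. Without them the medians are 1.76 to 3.44 on the left and −0.35 to −0.27 on the right.

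With CS-PA/CNP alone against control, 9 of the 22 reported TTP targets rose and 3 fell, and 7 of the 15 reported Regnase-1 targets rose and 8 were not called, against 6.67% of all tested genes higher and 5.61% lower. Tnf had 73.2 CPM with CS-PA/CNP, against 42.6 CPM in control, and Cxcl2 66.8 CPM, against 11.75 CPM in control. The lists share genes, Tnf and Cxcl2 among them, and the Regnase-1 list holds Zc3h12a, which rose itself. Zfp36l1 was lower in the same cells, and whether it has a part in these rises was not tested. In the interaction, 15 of the 22 reported TTP targets and 9 of the 15 reported Regnase-1 targets were lower, against 8.34% of tested genes. Their medians were −0.98 and −2.07, against −0.0058 over all tested genes. Il6, Nos2 and Il12b passed the filter on low counts through the groups with PgLPS alone, and they are in these counts. Il6 and Il1b had 2 and 26 reads summed over the control libraries, so their differences rest on few reads. Zc3h12a is again on the Regnase-1 list.

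The promoters of Zfp36 and Zfp36l1 are shown because these relatives moved in opposite directions with PgLPS. They come from RefSeq (GRCm38.p6), from 250 bases before to 50 bases after the start site. Promoters were at hand for 7 of the 8 genes, but not for Zfp36l2, which also fell with PgLPS. Capitals mark the motifs found, searched on both strands. In Zfp36 these are the early growth response motif GCGGGGGCG, 105 bases before the start, and the serum response element, 58 bases before. In Zfp36l1 they are the AP-1 motif TGANTCA, 129 bases before the start, and the TATA motif TATAAA, 29 bases before. Of 32851 promoters, 2.91% held the early growth response motif, 1.63% the serum response element, 7.81% the AP-1 motif and 13.6% the TATA motif. In the other promoters searched, Rc3h1 had an AP-1 motif 133 bases before its start, and Zc3h12a, Zc3h12c, Rc3h2 and Elavl1 had no match. The kappa B motif (in 4.51% of promoters) and the cyclic AMP response element TGACGTCA (1.79%) matched in none of the 7. Letters that match are a description and not a shown binding site, and no match says only that these letters are not in the window.
Zfp36 promoter at chr7:28379179-28379478 (minus strand): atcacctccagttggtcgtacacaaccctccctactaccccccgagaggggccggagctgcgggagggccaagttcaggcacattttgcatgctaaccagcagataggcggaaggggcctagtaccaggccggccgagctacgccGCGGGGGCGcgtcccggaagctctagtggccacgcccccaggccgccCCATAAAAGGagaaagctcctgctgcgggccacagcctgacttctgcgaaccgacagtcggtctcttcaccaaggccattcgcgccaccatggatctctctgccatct
Zfp36l1 promoter at chr12:80112964-80113263 (minus strand): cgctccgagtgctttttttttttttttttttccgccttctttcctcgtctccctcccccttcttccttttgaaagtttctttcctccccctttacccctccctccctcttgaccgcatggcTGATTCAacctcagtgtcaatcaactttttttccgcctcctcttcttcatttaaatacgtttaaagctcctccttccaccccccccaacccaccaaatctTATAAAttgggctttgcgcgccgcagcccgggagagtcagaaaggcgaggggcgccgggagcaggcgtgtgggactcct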

How the data were processed

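The authors deposited whole-number read counts per gene, not normalized, in 1 table of 21899 genes with 12 count columns and the length of each gene. A further 12 per-sample columns were not used. Per the submitters' processing notes, the tools were DESeq 1.30.0, HTSeq 0.9.1, HISAT2 2.0.5 and cutadapt 1.15, whose roles the notes leave unstated. Genome build, annotation and strandedness: not given in the sources used here, and gene coordinates of the table are not printed. Columns were read as groups by their letters (LM both agents, L PgLPS, M CS-PA/CNP, C control), a reading the labels do not spell out.

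Counts were tested with edgeR 4.0.16 in R 4.3.3 (TMM, filterByExpr by group, quasi-likelihood test) in 1 fit of all 12 libraries; the filter kept 11656 genes. Adjusted p-values are BH values over those genes, threshold 0.05, and a 95% interval comes from the same fit. Shares within the TTP family, planned on the table's own per-length values, were computed from counts over gene length and tested by exact permutation. The edgeR fit was tested on simulated data. The members and lists were chosen with earlier results of these data known. The text names the 8 genes, genes among the 4 with the smallest adjusted p per list and comparison, genes from a set of 8 inflammatory genes, and genes among the 3 nearest to each regulator in course, out of genes of at least 5 CPM in 1 group. Alternatives to TMM scaling were library totals and relative log expression (RLE) size factors. The others were no filter, DESeq2 1.42.0, a block by column number, a fit of only the groups compared and leaving out each library. Pairs of libraries of 1 group differed by more than sampling noise (chi-square over degrees of freedom 2.78 to 18.0).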

Additional observations from a re-analysis of the deposited data

Results flagged for a closer look

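The effect of CS-PA/CNP differed between cells with and without PgLPS for 3 of the 8 genes, by a test of the difference itself. For Zfp36 the effect with PgLPS minus the effect without was 0.53 on the log2 scale (edgeR BH-adjusted p = 0.000332), from log2 fold changes of 0.35 with PgLPS and −0.18 without. For Zfp36l1 it was 0.90 (edgeR BH-adjusted p = 7.33e-05), from 0.28 with PgLPS and −0.62 without. For Zc3h12a it was −0.73 (edgeR BH-adjusted p = 0.000155), from −0.38 with PgLPS and 0.36 without. The effect with PgLPS and the effect without share no libraries.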

How the results depend on the processing

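For the 8 genes, 657 of 712 recomputed fold changes kept their direction and their side of the threshold, 24 changed sign, and, whatever their sign, 13 became called and 20 lost the call. For CS-PA/CNP against control, 3 of the 8 genes were called, against 5 with DESeq2, 6 with only the 2 groups and 1 to 4 when a library was left out, with the fewest without control library 3 or CS-PA/CNP library 1; all genes called numbered 1431, and 949 to 1641 when a library was left out, with the fewest without CS-PA/CNP library 3. The share of Zfp36 with both agents against PgLPS ranged from −1.22 to 2.74 points when a library was left out. With library totals, Rc3h2 turned to −0.38 (edgeR BH-adjusted p = 0.00721) and Elavl1 to −0.17 with PgLPS against control, Rc3h2 to −0.26 and Elavl1 to −0.12 with both agents against control, and Elavl1 to 0.048 with both agents against PgLPS, where it was 0.0054 without the filter and 0.0043 with only the 2 groups. When a library was left out, uncalled genes changed sign within these ranges: Rc3h2 from −0.093 to 0.15 with PgLPS against control, and with both agents against PgLPS Rc3h1 from −0.11 to 0.089, Rc3h2 from −0.054 to 0.19 and Elavl1 from −0.048 to 0.022. The cause was not tested. Column numbers were not taken to pair libraries: 18 correlations of same-numbered deviations ran from −0.046 to 0.16, 2 of them above 0.1, and 7 of 12 libraries correlated best with their own number. With a replicate block by those numbers, 6 of the 8 genes were called for CS-PA/CNP against control.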
